A study of Mus musculus with 4 samples.

Results

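Chemokine ligands and receptors were examined at 2 times of telogen, when hair follicles rest, in the back skin of adult male C57B6 mice. Whole skin was used. The late time was postnatal day 59 (P59) and the middle time postnatal day 54 (P54), with 2 arrays each. The question the design gives is which transcripts differ between late and middle telogen. All mice carry the same strain and sex labels and no treatment is named. Skin was shaved and excised after death, its total RNA was extracted with Trizol, and biotin-labelled cRNA was hybridised to Affymetrix arrays. The labels call the samples biological replicates without saying how many animals made up each. The p-values therefore rest on the spread between these samples, which limma draws towards a spread pooled over all genes tested.

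The members were 37 genes listed by symbol, 24 ligands and 13 receptors, of which 36 had a probe set annotated with that gene alone, among 18193 such genes on the array. Ccl19 had none and is not analysed here. Of the 36 genes, 19 lay above the intensity filter of 6.58 (log2), the 40th percentile of the mean over the 4 arrays, and were tested among 10916 genes. Ccl4 lay just above the filter with a mean of 6.67, and Ccl2 just below it with 6.39. Ccl4 and Ccl7 passed it through their P59 means, their P54 means being 6.55 and 6.54. A gene below the filter was not tested, and its transcript may still be present.

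Chemokines are small secreted or membrane-bound proteins that steer the movement of leukocytes and other cells along gradients. They are grouped by the spacing of their first cysteines into CC, CXC and CX3C types, and they act on receptors that couple to G proteins. Atypical receptors bind chemokines without that coupling and remove or transport them. In skin, inflammatory chemokines draw in monocytes, granulocytes and T cells, while homeostatic ones keep resident cells in place.

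The genes with the clearest differences were ligands of myeloid and lymphoid cells. Cxcl13, Ccl9, Ccl6 and Ccl8 were higher on both P59 arrays than on both P54 arrays, by 2.01-, 1.84-, 1.72- and 1.49-fold. Ccr1, the receptor that binds Ccl6 and Ccl9 in the mouse, was higher on both P59 arrays too, on a probe set below the intensity filter at both times. The stromal ligand Cxcl12, the keratinocyte ligand Cxcl14 and the atypical receptors Ackr1 to Ackr4 had overlapping groups. None of the differences passed the adjusted threshold.

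In limma's fit 0 of the 19 tested chemokine genes had an adjusted p under 0.05, as against 0.0183% of all genes tested (2 of 10916). At an unadjusted p under 0.05, 4 of the 19 were higher at P59 and 0 were lower, where 6.49% of all genes tested passed, 3.47% higher and 3.01% lower. With a 1.5-fold limit added, 3 of the 19 were higher and 0 lower, against 3.03% and 2.53% of all genes tested. The mean was higher at P59 for 14 of the 19, against 58.4% of all genes tested. Both P59 arrays lay above both P54 arrays for 7 of the 19 and below them for 0, against 18.9% and 14.8% of all genes tested. Over all 36 genes with a probe set these counts were 15 and 2, against 23.3% and 12.3% of all genes. The mean was higher at P59 for 27 of the 36, where 62.3% of all genes were higher, and the median log2 difference was 0.25, against 0.07 over all 18193 genes. With 2 arrays a group, the smallest two-sided p of an exact permutation test is 0.333. Without P54 replicate 2 the log2 differences of Ccl6, Ccl8, Ccl9 and Cxcl13 were smaller, at 0.77, 0.46, 0.76 and 0.90. On all arrays they were 0.78, 0.57, 0.88 and 1.01. That replicate held the lowest values of Ccl6, Ccl8, Ccl9, Cxcl13 and Ccl11.

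**Figure D1:**
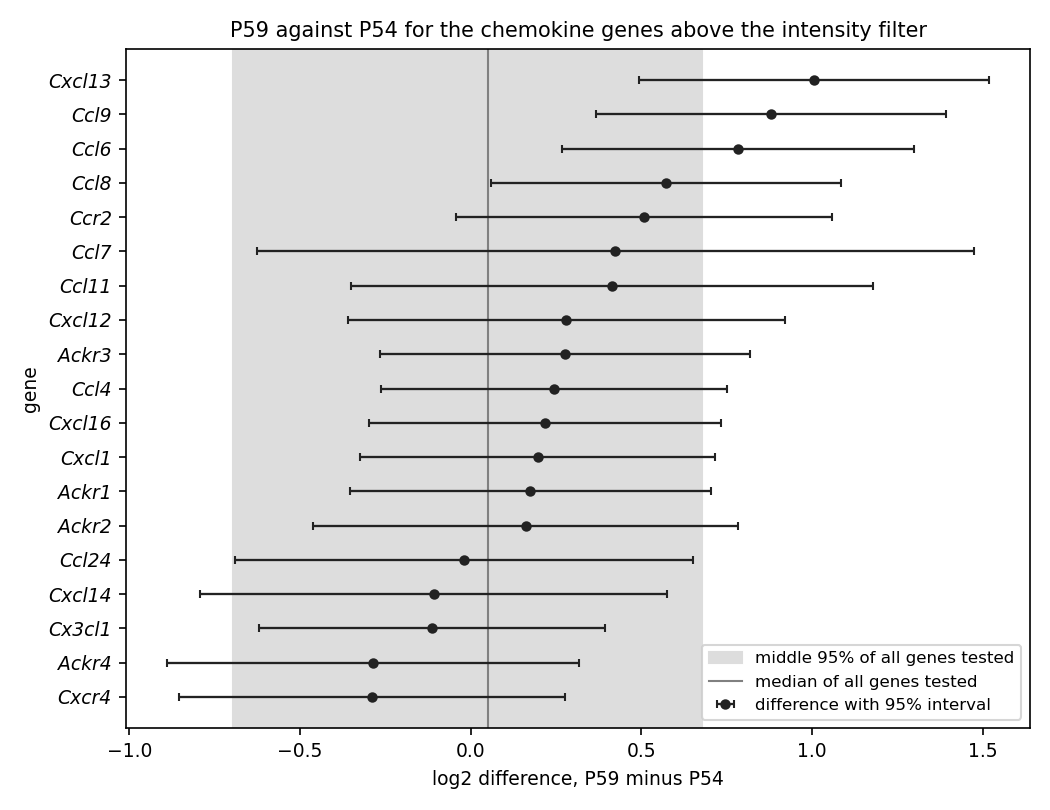
Log2 difference, P59 minus P54, of the 19 chemokine genes above the intensity filter (points) with limma's 95% interval (bars). The shaded band holds the middle 95% of all 10916 genes tested, from -0.70 to 0.68, and the points of Cxcl13, Ccl9 and Ccl6 lie to the right of it.

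P59 replicate 2 stood apart from the other arrays: its rank correlation with P59 replicate 1 over the genes tested was 0.930, while the P54 arrays reached 0.976 with each other. P59 replicate 1 correlated more with P54 replicates 1 and 2 (0.9698 and 0.9525) than with P59 replicate 2, so by this measure the arrays did not group by day. The tissue label was checked with markers, and 6 of 6 keratinocyte, 7 of 7 fibroblast, 6 of 6 adipocyte and 7 of 7 skeletal muscle genes with a probe set lay above the filter. In whole skin, a change in the number of cells of a type cannot be told apart from a change in RNA per cell.

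Ccl6 and Ccl9 are CC chemokines of the mouse that act on Ccr1 and attract monocytes and other myeloid cells. Ccl9 had log2 intensities of 10.64 and 10.82 on the P59 arrays, against 9.97 and 9.73 on the P54 arrays. The groups did not overlap, and the means were 10.73 ± 0.13 and 9.85 ± 0.17 (SD, n = 2 each). Its log2 difference in limma was 0.88 (SE 0.23, 95% interval 0.37 to 1.39, adjusted p = 0.400). Ccl6 stood at 10.40 and 10.72 on the P59 arrays and at 9.79 and 9.77 on the P54 arrays. Both P59 values lay above both P54 values, and the difference was 0.78 (SE 0.23, 95% interval 0.27 to 1.30, adjusted p = 0.490 in limma). A second probe set of each gene also separated the groups. That of Ccl6 read 8.87 and 9.16 at P59 and 8.01 and 7.70 at P54, a difference of 1.16, and that of Ccl9 read 9.57 and 9.01 at P59 and 8.91 and 8.51 at P54, a difference of 0.58. The second set of Ccl6 is of a kind (_s_at) that can match more than 1 transcript.

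Cxcl13, a CXC ligand of Cxcr5 that guides B cells and some T cells, had the largest difference of the 19 listed genes that were tested. It stood at 7.85 and 8.04 on the P59 arrays and at 7.05 and 6.84 on the P54 arrays. The groups lay well apart compared with their spread, with means of 7.95 ± 0.14 and 6.94 ± 0.15 (SD, n = 2 each) and a log2 difference of 1.01 (SE 0.23, 95% interval 0.49 to 1.52, adjusted p = 0.282 in limma). Its second probe set read 7.56 and 7.98 at P59, against 6.13 and 5.72 at P54, which is a difference of 1.85. Cxcr5, its receptor, lay below the filter at 4.45 and 4.46 on the P59 arrays and 4.33 and 4.24 on the P54 arrays. The B cell markers Cd79a, Cd79b, Ms4a1 and Jchain likewise lay below the filter, 4 of 4 with a probe set.

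Ccl8 is a CC ligand that in the mouse acts on Ccr8 of T helper cells, and 1 probe set measured it. It stood at 12.30 and 12.12 on the P59 arrays and at 11.75 and 11.52 on the P54 arrays. The groups did not overlap. The means were 12.21 ± 0.13 and 11.64 ± 0.16 (SD, n = 2 each), and the difference was 0.57 (SE 0.23, 95% interval 0.06 to 1.08, adjusted p = 0.723 in limma), and it was 0.46 without P54 replicate 2. Ccr8 lay below the filter, with means of 3.94 ± 0.10 at P59 and 4.27 ± 0.18 at P54 (SD, n = 2 each).

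The sequences before the annotated starts of Ccl6, Ccl9, Ccl8, Cxcl13 and Ccr1 are shown because the first 4 were higher at an unadjusted p under 0.05 and Ccr1 is the receptor of Ccl6 and Ccl9. They are from RefSeq, build GRCm38.p6, and cover 250 bases up to the base before the start, each written 5′ to 3′ on the strand of its gene. Capitals mark matches, on either strand, to a TATA box (TATAAA), the core bound by ETS factors such as PU.1 (AGGAAG), a C/EBP motif (TTGCNNAA) and a kappa B motif (GGGA and TTCC with 2 bases of any kind between them), searched after the sequences had been seen. Ccl6 lies at chr11:83593088-83593337 on the minus strand, Ccl9 at chr11:83578637-83578886 on the minus strand, Ccl8 at chr11:82114935-82115184 on the plus strand, Cxcl13 at chr5:95956689-95956938 on the plus strand and Ccr1 at chr9:123968693-123968942 on the minus strand.
Ccl6: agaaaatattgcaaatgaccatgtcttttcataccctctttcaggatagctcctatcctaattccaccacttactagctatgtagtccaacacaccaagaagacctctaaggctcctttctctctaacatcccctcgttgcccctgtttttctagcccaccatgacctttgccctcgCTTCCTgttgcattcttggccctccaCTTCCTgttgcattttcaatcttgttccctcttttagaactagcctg
Ccl9: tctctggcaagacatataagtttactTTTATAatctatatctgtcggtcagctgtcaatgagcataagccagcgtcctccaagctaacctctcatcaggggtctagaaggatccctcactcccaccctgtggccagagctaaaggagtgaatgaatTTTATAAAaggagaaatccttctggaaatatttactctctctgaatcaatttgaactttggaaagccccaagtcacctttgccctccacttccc
Ccl8: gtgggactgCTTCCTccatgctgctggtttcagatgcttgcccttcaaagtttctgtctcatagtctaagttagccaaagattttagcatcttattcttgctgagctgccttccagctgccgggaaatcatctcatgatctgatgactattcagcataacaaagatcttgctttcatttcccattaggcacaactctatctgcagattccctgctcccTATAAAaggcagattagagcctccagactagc
Cxcl13: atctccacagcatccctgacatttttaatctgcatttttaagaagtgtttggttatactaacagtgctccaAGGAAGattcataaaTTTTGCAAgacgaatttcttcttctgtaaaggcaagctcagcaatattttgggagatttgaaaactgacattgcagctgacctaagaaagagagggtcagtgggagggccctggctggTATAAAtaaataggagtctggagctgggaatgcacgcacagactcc
Ccr1: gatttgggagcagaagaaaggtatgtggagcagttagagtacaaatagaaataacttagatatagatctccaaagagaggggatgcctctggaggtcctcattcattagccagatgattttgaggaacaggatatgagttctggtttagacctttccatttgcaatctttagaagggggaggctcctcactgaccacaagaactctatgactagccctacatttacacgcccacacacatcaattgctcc
The TATAAA of Ccl8 lay 32 to 27 bases before the start and that of Cxcl13 46 to 41 bases before it. Ccl9 held that motif on both strands in 1 overlapping stretch, 94 to 87 bases before the start, and once more on the opposite strand. Ccl6 held the ETS core 2 times, 73 to 68 and 47 to 42 bases before its start, Ccl8 and Cxcl13 once each, and Ccl9 not. The C/EBP letters occurred once, in Cxcl13. The kappa B letters occurred in none of the 5 windows, and no motif searched occurred in that of Ccr1. Among 32851 windows of the same length in the same annotation, 12.4% held TATAAA, 29.5% the ETS core, 9.56% the C/EBP letters and 1.21% the kappa B letters. Of the 26 listed chemokine genes with a window, these 5 included, 8 held TATAAA, 13 the ETS core, 2 the C/EBP letters and 2 the kappa B letters. A match is a description of the letters, not of a bound site.

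Several of these genes are neighbours. In the RefSeq annotation Ccl5, Ccl9, Ccl6, Ccl3 and Ccl4 follow one another on chromosome 11, with log2 differences, P59 minus P54, of 0.89, 0.88, 0.78, 0.26 and 0.24 in that order. Ccl5, which attracts T cells and monocytes, stood at 6.18 and 7.01 on the P59 arrays, against 5.79 and 5.62 on the P54 arrays, below the filter on average. Ccl3 read 4.60 and 4.14 at P59 and 4.22 and 3.99 at P54, and Ccl4 read 6.73 and 6.85 at P59 and 6.43 and 6.66 at P54. The groups of Ccl4 did not overlap and those of Ccl3 did. Whether neighbours differ from each other was not tested. In the fit without the intensity filter Ccl5 had an unadjusted p of 0.0186 and an adjusted p of 0.696 in limma.

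The monocyte chemoattractants Ccl2, Ccl7 and Ccl12 lie with other CC ligands in another cluster of chromosome 11, in the order Ccl2, Ccl7, Ccl11, Ccl12 and Ccl8, with log2 differences of 0.10, 0.42, 0.41, 1.62 and 0.57. Ccl2 stood at 6.97 and 5.91 on the P59 arrays, against 6.52 and 6.16 on the P54 arrays. Ccl7 stood at 7.82 and 6.11 on the P59 arrays, against 6.93 and 6.15 on the P54 arrays. Both were highest in P59 replicate 1 and lowest in P59 replicate 2, so the P54 values lay within the P59 range. The log2 difference of Ccl7 was 0.42 (SE 0.47, adjusted p = 0.952 in limma), 1.28 without P59 replicate 2 and 0.03 without P54 replicate 2. Ccl12, a ligand of Ccr2 and no member of the list, stood at 7.43 and 6.72 on the P59 arrays and 5.74 and 5.16 on the P54 arrays. Its groups did not overlap, and its mean lay below the filter.

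Ccr2, the receptor of Ccl2, Ccl7 and Ccl12 on monocytes, stood at 7.84 and 8.25 on the P59 arrays and at 7.39 and 7.68 on the P54 arrays. The groups did not overlap but lay close, with a difference of 0.51 (SE 0.25, 95% interval -0.04 to 1.06, adjusted p = 0.809 in limma). Its 3 other probe sets differed by 0.81, 0.13 and 0.00024, so the size depended on the set. Ccr1, which neutrophils, monocytes and macrophages carry, stood at 6.28 and 6.48 on the P59 arrays and at 4.76 and 4.57 on the P54 arrays. This was the largest difference among the 36 genes, 1.71 on the log2 scale, and the groups did not overlap. Since both means lay below the filter, and that of P54 below the 95th percentile of olfactory receptor genes (5.67) as well, no fold is given. In the fit without the intensity filter its unadjusted p was 5.06e-05 and its adjusted p 0.217 in limma (SE 0.19). Its second probe set read 3.33 and 3.19 at P59 and 3.24 and 3.39 at P54, far below the filter, and did not separate the groups. In the fit without the filter 7 of 36 chemokine genes were higher at an unadjusted p under 0.05 and 0 lower, where 3.95% of all genes were higher and 2.22% lower.

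**Figure D2:**
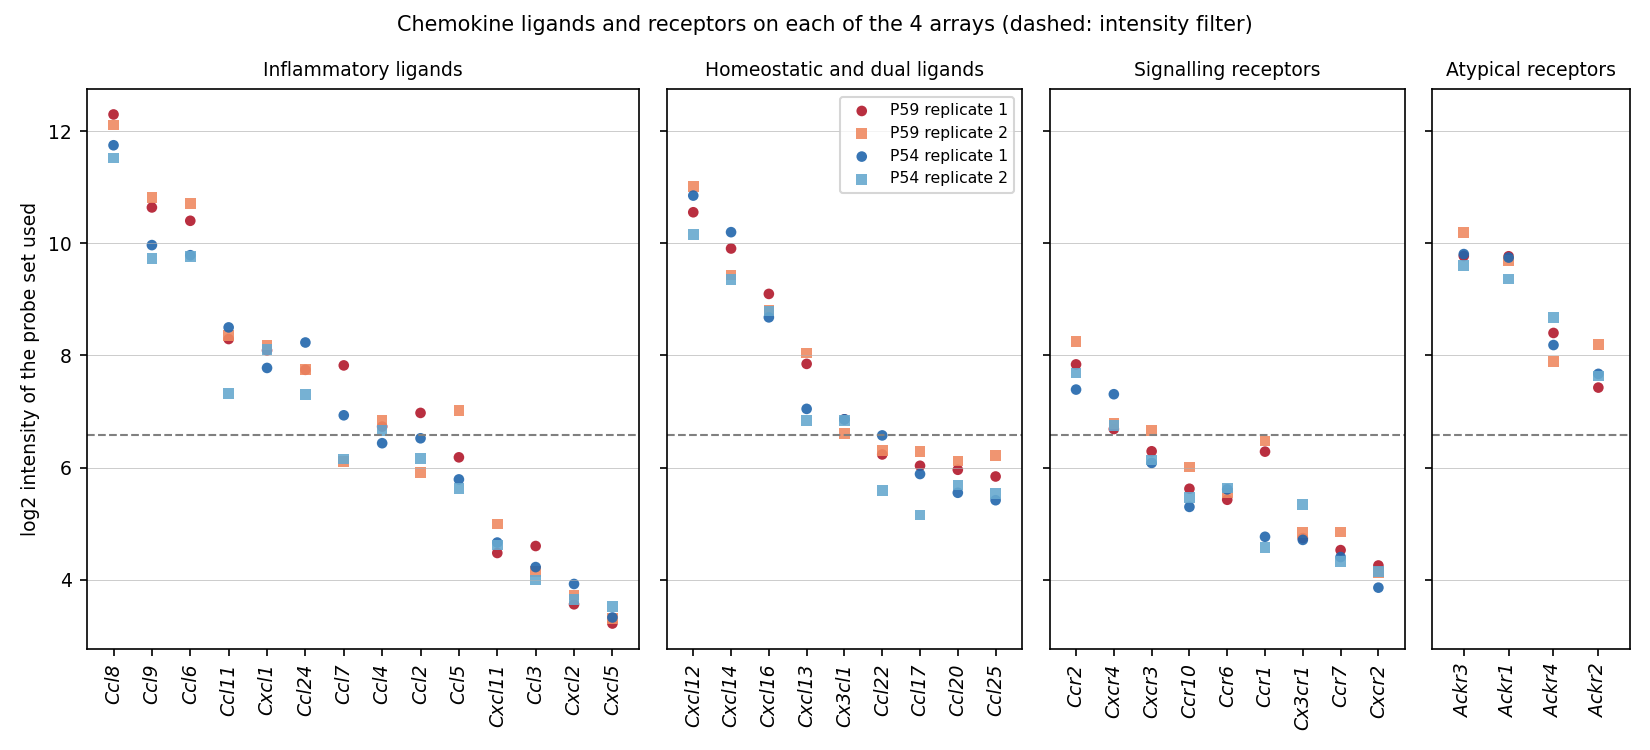
Log2 intensity of the 36 chemokine genes with a probe set, by role and in order of their mean, on each P59 and P54 array (points; no error bars, each point is 1 array). The dashed line is the intensity filter of 6.58, with 19 genes whose mean lies above it. Levels of different probe sets are not directly comparable.

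The other inflammatory ligands showed no separation of the groups above the filter apart from Ccl4. The eosinophil attractants Ccl11 and Ccl24 differed by 0.41 (SE 0.34) and -0.02 (SE 0.30), each with an adjusted p above 0.9 in limma. Ccl11 read 8.29 and 8.35 at P59 and 8.50 and 7.32 at P54, so its difference rested on P54 replicate 2 and was -0.18 without it. The eosinophil markers Siglecf, Epx, Prg2 and Il5ra, 4 of 4 with a probe set, lay below the filter. The neutrophil attractant Cxcl1 differed by 0.20 (SE 0.23, adjusted p = 0.952 in limma) on a probe set of a kind (_x_at) that can match more than 1 transcript. A further set of Cxcl1 without that limit had a mean of 4.74, below the filter. Cxcl2 and Cxcl5, which act on the same receptor, had means of 3.71 and 3.34, and the receptor, Cxcr2, one of 4.09, all below the filter. Cxcl11, which the RefSeq annotation of the C57BL/6J genome lists as a transcribed pseudogene, had a mean of 4.68 and differed by 0.09.

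Among the homeostatic ligands, Cxcl12, made by fibroblasts and endothelium and recognised by Cxcr4, stood at 10.56 and 11.01 on the P59 arrays and at 10.85 and 10.16 on the P54 arrays. The groups overlapped, and the difference was 0.28 (SE 0.29, 95% interval -0.36 to 0.92, adjusted p = 0.951 in limma). A second probe set of Cxcl12 above the filter read 8.86 and 8.88 at P59, against 9.26 and 9.28 at P54, a difference of -0.40 with no overlap, so the 2 sets above the filter disagreed in direction. The third set, below the filter, differed by -0.04. Cxcr4 stood at 6.69 and 6.79 on the P59 arrays and at 7.31 and 6.75 on the P54 arrays, with a difference of -0.29 (SE 0.25, adjusted p = 0.939 in limma). Ackr3, an atypical receptor that scavenges Cxcl12, stood at 9.78 and 10.19 at P59 and at 9.81 and 9.61 at P54, and differed by 0.28 (SE 0.24, adjusted p = 0.939 in limma).

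Cxcl14, a ligand abundant in keratinocytes and hair follicles, stood at 9.91 and 9.43 on the P59 arrays and at 10.20 and 9.36 on the P54 arrays. The replicates of each time lay farther apart than the means, which differed by -0.11 (SE 0.31, 95% interval -0.79 to 0.58, adjusted p = 0.984 in limma). Its other probe set read 8.95 and 7.25 at P59 and 9.30 and 8.52 at P54, so it was lowest in P59 replicate 2. Keratinocyte markers were lower at P59 for 6 of 6 genes with a median difference of -0.24, against 0.07 over all genes. The part of that shift in the values of Cxcl14 was not tested.

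Cxcl16, a membrane-bound ligand of macrophages and dendritic cells, stood at 9.10 and 8.81 on the P59 arrays and at 8.68 and 8.79 on the P54 arrays. The groups just failed to overlap, with a difference of 0.22 (SE 0.23, adjusted p = 0.952 in limma). Its receptor Cxcr6, which is no member of the list, lay below the filter at 5.77 and 6.54 on the P59 arrays and 4.90 and 4.62 on the P54 arrays. Cx3cl1, the membrane-bound fractalkine, differed by -0.11 (SE 0.23, adjusted p = 0.972 in limma), and its receptor Cx3cr1, with a mean of 4.91, lay below the filter.

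Ccl17 and Ccl22, made by dendritic cells and recognised by Ccr4 on T cells, lay below the filter. Ccl17 stood at 6.03 and 6.28 on the P59 arrays and at 5.88 and 5.15 on the P54 arrays. Ccl22 stood at 6.23 and 6.31 on the P59 arrays and at 6.57 and 5.58 on the P54 arrays. The groups did not overlap for Ccl17 and did for Ccl22, and P54 replicate 2 was the lowest array for both. Ccr4 read 5.18 and 4.27 at P59 and 4.76 and 4.86 at P54. Of the remaining ligands and receptors below the filter, Ccl20, Ccl25, Ccr7, Ccr10 and Cxcr3 were higher on both P59 arrays than on both P54 arrays, with differences of 0.42, 0.55, 0.32, 0.43 and 0.37. Ccr6, the receptor of Ccl20, was lower on both, with a difference of -0.14. A second probe set of Ccl25 differed by -0.17.

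The 4 atypical receptors were all above the filter, and their groups overlapped. Ackr1, which binds inflammatory chemokines on venules and red cells, stood at 9.77 and 9.69 on the P59 arrays and at 9.75 and 9.37 on the P54 arrays (difference 0.17, SE 0.24, adjusted p = 0.959 in limma). Ackr2, which degrades inflammatory CC chemokines in lymphatic vessels, differed by 0.16 (SE 0.28, 95% interval -0.46 to 0.78). Ackr4, which scavenges Ccl19, Ccl21 and Ccl25, differed by -0.29 (SE 0.27, 95% interval -0.89 to 0.32). Its other probe sets, both below the filter, differed by -0.24 and -0.30. The other sets of Ackr2, also below the filter, differed by -0.26 and 0.16, so they disagreed in direction. These intervals allow differences of over 1.5-fold in at least 1 direction, so small n limits what can be said of these receptors. Blood endothelium markers were lower at P59 for 6 of 7 genes and lymphatic markers higher for 5 of 6, with medians of -0.24 and 0.28, where 62.3% of all genes were higher and the median was 0.07.

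**Figure D3:**
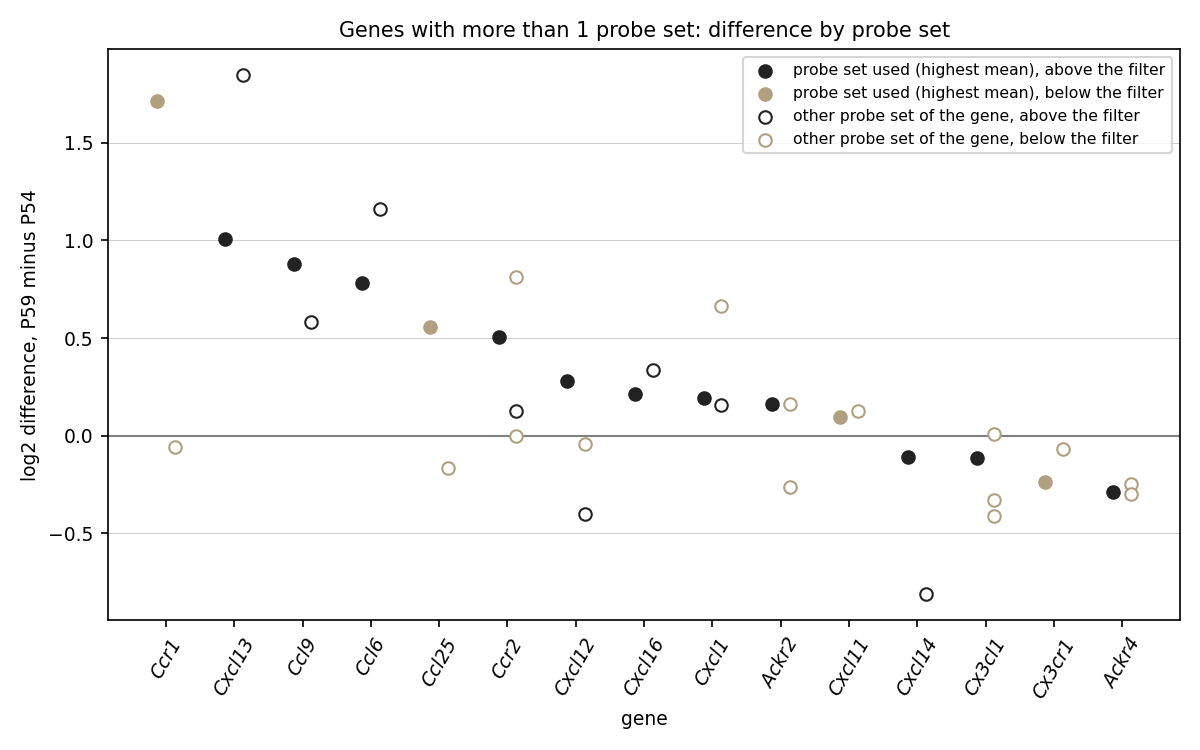
Log2 difference, P59 minus P54, of each probe set for the 15 chemokine genes with more than 1 set. Filled points are the set with the highest mean and open points the others, dark above and light below the intensity filter. The 2 sets each of Cxcl13, Ccl9 and Ccl6 lie above 0, while those of Cxcl12 and Ccr1 differ from each other.

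All 14 macrophage markers with a probe set had a higher mean at P59, where 62.3% of all genes did. The groups did not overlap for 9 of the 14, against 23.3% of all genes, and the median difference was 0.56, against 0.07. Of 13 tested, 7 were higher at an unadjusted p under 0.05 and 0 lower, against 3.47% and 3.01% of all genes tested. In limma 0 passed the adjusted threshold, the lowest adjusted p being 0.179 for Msr1. Csf1r, Cd163, C1qb, C1qc and Marco had overlapping groups. Msr1, a scavenger receptor gene, stood at 7.45 and 7.10 on the P59 arrays and at 6.11 and 6.08 on the P54 arrays. The summed intensity of the macrophage markers was 15680 and 19200 on the P59 arrays, against 13640 and 11960 on the P54 arrays. Of the defining markers Marco lay below the filter, Csf1r differed by 0.07, and Cd163 was highest in P59 replicate 2 and lowest in P59 replicate 1. The part of macrophage number in the chemokine differences was not tested. Of the neutrophil markers S100a8, which stressed keratinocytes express too, was 2.17 higher on the log2 scale (adjusted p = 0.0387 in limma). Its probe set is of the _s_at kind. S100a9 was 1.71 higher (adjusted p = 0.290 in limma). The P54 means of Msr1, S100a8 and S100a9 were 6.10, 6.35 and 5.89, below the intensity filter. Like Ccl4 and Ccl7, these genes passed it through their P59 means, which limits what their p-values can show. The call of S100a8 was not kept in any of the 8 settings in which 0 of all genes passed, among them no intensity filter. At the 60th percentile S100a8 was not tested, its mean lying at percentile 50.4, and 1 of the 8 left out its _s_at set. Mpo, Elane, Camp, Ltf, Ngp and Csf3r, the other 6 of 8 neutrophil markers with a probe set, lay below the filter on the mean of the arrays. Their log2 differences were 0.30, 0.18, -0.15, 0.21, 0.04 and 0.38 in that order. The summed intensity of the 8 was 689.0 and 967.2 at P59, against 324.4 and 377.1 at P54, a difference that lay mainly in S100a8 and S100a9.

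**Figure D4:**
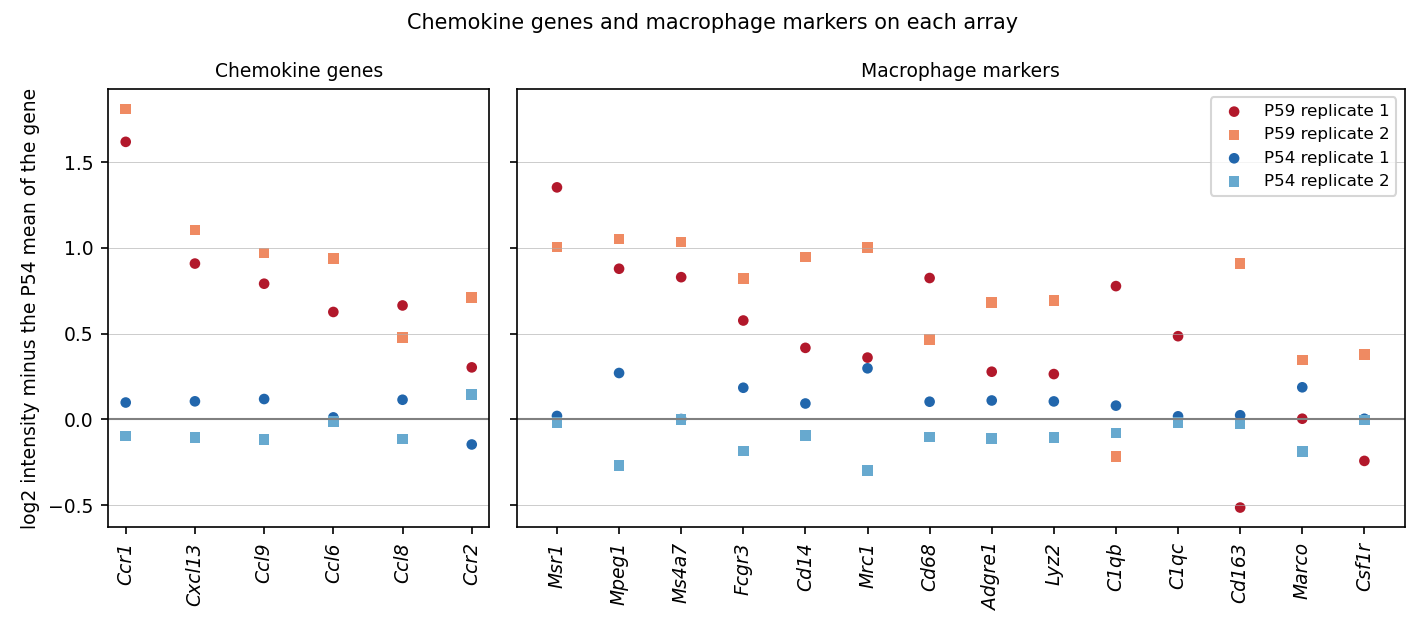
Log2 intensity on each P59 and P54 array relative to the P54 mean of the same gene, for 6 chemokine genes (left) and the 14 macrophage markers (right). Each point is 1 array. The 6 chemokine genes were picked from the 15 of 36 with both P59 arrays above both P54 arrays, so they do not stand for the list. This held for 9 of the 14 markers, against 23.3% of all genes.

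Other genes of the pathway were taken from lists. Of 14 other chemokine ligands 12 had a probe set and 4 were tested. At an unadjusted p under 0.05, where 3.47% of all genes tested were higher and 3.01% lower, 0 were lower and 1 was higher. This was Cxcl9, an interferon-induced ligand of Cxcr3, at 8.66 and 7.34 on the P59 arrays and 7.09 and 6.32 on the P54 arrays (difference 1.30, SE 0.40, adjusted p = 0.511 in limma). It was 0.64 without P59 replicate 1 and 1.96 without P59 replicate 2. Its spread at P59 was wide, and Cxcl10, a further ligand of Cxcr3, read 8.30 and 7.06 at P59 and 7.33 and 7.32 at P54, so that its P54 values lay within the P59 range. The platelet and macrophage chemokine gene Pf4 differed by 0.27. Of 12 other genes listed as chemokine receptors 1 was tested, the chemokine-like receptor gene Cmklr1, with a difference of -0.16. Of 22 genes of chemokine receptor signalling with a probe set 17 were tested. At an unadjusted p under 0.05, 0 of them passed in either direction, against 6.49% of all genes tested. Their median was 0.003, against 0.05 over all genes tested. Gng2, a G protein subunit gene, differed by 0.50 (adjusted p = 0.828 in limma) and Dock2, which drives leukocyte movement, by 0.46 (adjusted p = 0.870 in limma).

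Leukocyte adhesion genes, which hold cells that chemokines have drawn to the vessel wall, had 3 of 13 tested members higher at an unadjusted p under 0.05 and 0 lower, against 3.47% and 3.01% of all genes tested. Icam1 stood at 8.60 and 9.23 on the P59 arrays and at 8.23 and 7.91 on the P54 arrays, a difference of 0.84 (adjusted p = 0.545 in limma). Vcam1 stood at 7.52 and 8.31 on the P59 arrays and at 7.35 and 6.62 on the P54 arrays, a difference of 0.93 (adjusted p = 0.599 in limma). Itgb2, the integrin subunit gene of leukocytes that binds Icam1, differed by 0.66 (adjusted p = 0.675 in limma). For all 3 genes the groups did not overlap, and P59 replicate 2 was the highest array. None of the 3 calls held without P59 replicate 2, where the differences were 0.52, 0.53 and 0.41, or without P54 replicate 2, where they were 0.68, 0.56 and 0.50. Without P54 replicate 1 that of Itgb2 was lost (0.82). Of 16 genes listed upstream of chemokines with a probe set, 7 were tested: Nfkbia, Rela, Irf1, Stat3, Stat6, Tnfaip3 and Myd88. The inducing cytokines Tnf, Il1a, Il1b, Il6, Il17a, Ifng, Il4 and Il13 lay below the filter. Of the 7, 1 was higher and 1 lower at an unadjusted p under 0.05, against 3.47% and 3.01% of all genes tested. The mean was lower at P59 for 6 of 7, where 58.4% of all genes tested were higher. Nfkbia and Tnfaip3, which restrain NF-kB, were among the 6, so this count is no measure of induction. The higher one was Irf1, an interferon-regulated factor, at 9.77 and 9.17 on the P59 arrays and 8.78 and 8.67 on the P54 arrays. The lower one was Nfkbia, an inhibitor and target of NF-kB, at 11.94 and 12.69 on the P59 arrays and 12.91 and 13.03 on the P54 arrays. Their adjusted p-values were 0.599 and 0.743 in limma. Both calls held only without P59 replicate 2 among the fits with 1 array left out. Without P59 replicate 1 the differences were 0.45 for Irf1 and -0.29 for Nfkbia, against 0.74 and -0.66 on all arrays.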

How the data were processed

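The authors deposited 1 table of linear probe set intensity values for 4 arrays, and the submitters' processing notes name RMA and Affymetrix Expression Console, with versions not given in the sources used here. RMA brings arrays to a common distribution, so a shift shared by all genes is not seen. Intensities were taken to log2 with no pseudocount, control sets were left out, and each gene was represented by the probe set, annotated by GEO's platform table with 1 symbol, that had the highest mean. The filter kept genes whose mean log2 intensity exceeded the 40th percentile. These were fitted with lmFit and eBayes in limma 3.58.1 (R 4.3.3), with Benjamini-Hochberg adjustment across the 10916 genes kept. The fit has 2 residual degrees of freedom, so the number of arrays limits precision. To these eBayes adds 8.18 prior degrees of freedom estimated over all genes tested, so each SE rests largely on the other genes. The fit was tested on simulated data. RefSeq tables of GRCm38.p6 gave sequences, gene order and biotypes.

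Values on every array were to be given for members at an unadjusted p under 0.05, at least 1.5-fold apart or among the 8 with the highest mean, and for their ligands or receptors, and up to 4 genes with the smallest p named from each pathway list. Other members given by array, genes singled out from the cell type marker lists and the motifs were chosen after their values or sequences were seen. The members and lists were chosen with earlier results of these data known. The alternatives changed the filter, probe sets, normalization, variance model, replicate block and arrays included. Leaving out _s_at and _x_at sets was added after seeing the data.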

Additional observations from a re-analysis of the deposited data

How the results depend on the processing

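Ccl6, Ccl8 and Ccl9 stayed higher at P59 in 15 of 15 alternatives, and Cxcl13 in the 14 that kept it, with log2 differences of 0.63 to 0.97, 0.46 to 0.69, 0.73 to 0.999 and 0.90 to 1.43. Most of these could not have turned the sign. Changes of the filter or variance model leave the estimate as it is. Since the groups of these genes did not overlap, leaving out an array cannot reverse them either. For each of the 4, the adjusted p in limma was lowest without P59 replicate 1, a fit that leaves 1 array at P59. In the unmoderated model, which uses each gene's own spread, the unadjusted p-values of Ccl6, Ccl8, Ccl9 and Cxcl13 were 0.0378, 0.0607, 0.0273 and 0.0197. Of all genes, 2 passed the adjusted threshold, and 0 did with no intensity filter, the 60th percentile or olfactory receptor filter, the mean of all probe sets, every probe set, repeated quantile normalization, an unmoderated model or no _s_at and _x_at sets, while 9 did with array weights and 25 to 424 with 1 array left out. In every alternative that kept 2 arrays a group, 0 of the listed chemokine genes passed. Without P59 replicate 1, where 18 listed genes were above the filter, the difference of Cxcl13 was 1.103. The 4 of 19 listed genes higher at an unadjusted p under 0.05 became 7 of 36 with no filter and 7 of 26 with the olfactory filter. The 3 that were also 1.5-fold apart became 5 with no filter, the olfactory filter or every probe set. The 19 above the filter became 36 with no filter and 11 at the 60th percentile. Of all genes, 6.17% passed the unadjusted threshold in either direction with no filter and 6.62% with the olfactory filter, against 6.49% in the main fit. With every probe set 5.34% of all sets tested passed it. The share of all genes with the fold limit added is given for the main fit only. The median difference of the 36 listed genes, 0.25, was 0.17 with every probe set and 0.16 to 0.36 with 1 array left out. Over the 10916 genes tested, a different set, the median with 1 array left out was -0.026 to 0.126.

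The sign turned for Cxcl12 with the mean of its probe sets (-0.053) and for Ccl24 after repeated quantile normalization (0.024). With 1 array left out, differences spanned 0 for Ccl11 (-0.18 to 1.01), Ccl24 (-0.48 to 0.44), Cxcl12 (-0.069 to 0.63), Cxcl14 (-0.53 to 0.31), Cx3cl1 (-0.24 to 0.012), Ackr1 (-0.016 to 0.37), Ackr2 (-0.22 to 0.55), Cxcl10 (-0.27 to 0.97), Cmklr1 (-0.47 to 0.14) and Ccl27a (-0.021 to 0.27). The cause was not tested. Leaving out an array assumes that the lone sample varies like the other group.

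With the replicate number as a block, 156 genes passed the adjusted threshold and 0 of the 19 listed genes did. In that replicate block fit Cxcl9, not on the list, passed (1.30, adjusted p = 0.00348 in limma), as it did without P54 replicate 1 (1.68, adjusted p = 0.0127). It passed in no other alternative, and its difference was 0.64 (adjusted p = 0.324) without P59 replicate 1. Same-numbered arrays did not deviate together (r = -0.0374 over 10916 genes). With 2 arrays a group this cannot tell whether they share a litter or day, which the labels do not state. Signal near background and 2 arrays a group limit the members below the filter.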
